A study of Mus musculus with 4 samples.

Results

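Cell cycle genes were measured across the cell types of the mouse lung at 4 ages. The members are 45 listed genes, matched by symbol to the 27998 genes of the deposited count tables, and all 45 were present. They comprise 27 mitotic members (Mki67, Top2a, Ccna2, Ccnb1, Ccnb2, Cdk1, Cdc20, Birc5, Aurka, Aurkb, Bub1, Bub1b, Plk1, Kif11, Kif20a, Kif23, Kif2c, Cenpa, Cenpe, Cenpf, Tpx2, Ube2c, Nusap1, Hmmr, Cdca8, Prc1 and Pbk), 10 S phase members (Mcm2 to Mcm7, Pcna, Rrm1, Rrm2 and Tyms) and 8 other replication members (Esco2, Uhrf1, Gins2, Tk1, Cdc6, Cdc45, Ccne1 and Ccne2). The lungs came from wild-type C57BL/6 mice labelled male, aged 10 days (NB), 2 months (2 M), 10 months (10 M) and 18 months (18 M), and the labels name no engineered allele and no treatment. The tissue was digested with collagenase D and DNase1, dead cells were removed, and single cells were captured with the 10x Genomics 3′ chemistry, which tags each captured transcript with a unique molecular identifier (UMI). Each age has 1 library, and the number of mice behind it is not given in the sources used here. No replicate thus stands behind a difference between ages, and ages were compared without a test.

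A dividing cell copies its DNA in S phase and separates the copies in mitosis. The Mcm2 to Mcm7 proteins form the ring-shaped helicase that opens DNA for replication, Pcna is the sliding clamp that holds polymerases on it, and Rrm1, Rrm2 and Tyms make the nucleotides. These genes are transcribed as cells enter S phase, largely under E2F factors. The mitotic genes encode the cyclins that drive cells into mitosis with Cdk1, the Aurora and Polo kinases, spindle motors and proteins of the centromere, and many of them are transcribed late in the cycle from promoters that carry CCAAT boxes, bound by NF-Y, and a CHR element, bound by the DREAM complex and by B-Myb with FoxM1. Most cells of a resting adult lung are out of the cycle, whereas activated lymphocytes divide and alveolar macrophages renew themselves by local division.

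The promoters of 4 members are shown with their matches to the elements described above. They are among the 3 members of their class with the most UMIs in T cells. Their RefSeq promoters (assembly GRCm38.p6) could be printed without a transcribed base of the member's own annotated gene. Other annotated genes were not checked. Each is written 5′ to 3′ on the gene's strand. The windows of Mcm6, Mki67 and Top2a end at the RefSeq transcription start, and that of Uhrf1 ends at the start of the annotated gene, some bases short of its RefSeq start. The capitals mark the letters TTTGAA (CHR), CCAAT (NF-Y) and TTTCCCGC, TTTGGCGC or TTCCCGCC (E2F) on either strand. The Mcm6 window is chr1:128359706-128359955, minus strand, that of Mki67 is chr7:135716380-135716629, minus strand, that of Top2a is chr11:99024190-99024439, minus strand, and that of Uhrf1 is chr17:56303087-56303320, plus strand.
Mcm6: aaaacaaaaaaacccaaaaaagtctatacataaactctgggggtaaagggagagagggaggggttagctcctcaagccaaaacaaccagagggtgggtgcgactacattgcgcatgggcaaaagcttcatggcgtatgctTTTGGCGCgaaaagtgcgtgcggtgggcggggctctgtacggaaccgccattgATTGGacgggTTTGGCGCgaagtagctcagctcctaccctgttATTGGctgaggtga
Mki67: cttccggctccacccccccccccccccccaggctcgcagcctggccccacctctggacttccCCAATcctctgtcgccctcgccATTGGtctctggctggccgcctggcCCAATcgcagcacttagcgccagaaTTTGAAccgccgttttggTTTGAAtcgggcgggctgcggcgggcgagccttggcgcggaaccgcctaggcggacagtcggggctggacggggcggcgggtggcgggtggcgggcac
Top2a: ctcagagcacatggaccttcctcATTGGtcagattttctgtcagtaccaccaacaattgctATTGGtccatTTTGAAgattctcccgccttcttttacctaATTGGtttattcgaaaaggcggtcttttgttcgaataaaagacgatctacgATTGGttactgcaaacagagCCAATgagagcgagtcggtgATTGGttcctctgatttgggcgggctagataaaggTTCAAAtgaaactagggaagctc
Uhrf1: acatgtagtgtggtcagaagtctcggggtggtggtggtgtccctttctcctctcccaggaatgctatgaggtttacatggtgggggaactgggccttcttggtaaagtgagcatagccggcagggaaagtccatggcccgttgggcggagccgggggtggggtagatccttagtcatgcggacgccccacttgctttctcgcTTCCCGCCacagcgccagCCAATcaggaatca
The Mki67 window held 2 CHR matches and 3 CCAAT boxes, and the Top2a window 2 CHR matches and 6 CCAAT boxes. The Mcm6 window held 2 E2F matches of the letters TTTGGCGC, at -110 and -47 bases from the start, beside 2 CCAAT boxes. The Uhrf1 window held 1 E2F match and a CCAAT box.

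In the window of 250 bases before to 50 bases after the start, 36 of the 45 members had a RefSeq promoter, 39 promoters in all, out of 32851 promoters of all genes. CHR letters occurred in 18 of 23 mitotic promoters (78.3%), 1 of 10 S phase promoters (10%) and 1 of 6 other replication promoters (16.7%), against 17.9% of all promoters. The E2F letters showed the opposite distribution, with 0 of 23 mitotic, 5 of 10 S phase (50%) and 2 of 6 other replication promoters (33.3%), against 3.21% of all promoters. The letters TTTCCCGC and TTCCCGCC overlap each other. CCAAT boxes were common to both main classes, in 20 of 23 mitotic and 9 of 10 S phase promoters, against 37.4% of all promoters, and 17 of 23 mitotic promoters (73.9%) held a CHR match and a CCAAT box together, against 6.95% of all promoters. Cenpa, whose level is described below apart from the other mitotic members, had CCAAT boxes at -109 and -86 and a CHR match at +17. Pcna had a CCAAT box at -87 in its window. A match is a description of these letters and no measurement of binding.

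The deposited tables held 34037 barcodes and 187318121 UMIs, between 33087004 and 64863474 UMIs per library, and the members took 18798, 16973, 21287 and 38537 UMIs in NB, then 2 M, 10 M and 18 M. After the limits on genes, UMIs and mitochondrial share, 6377, 5537, 7862 and 8377 cells were kept in the same order, with median depths of 3998.5 to 4308 UMIs. Xist, the RNA that silences one X chromosome in female cells, reached 577.7 counts per 1000000 UMIs (CPM) in the library labelled 18 M, against 0.526 CPM or below in the others, and the Y-linked genes were at 203.8 CPM there and at 340.3 to 396.5 CPM in the others, although every library is labelled male. The library labelled 18 M held 2678 cells with an Xist and no Y-linked UMI and 3331 cells with a Y-linked and no Xist UMI, and its results are given for both sets where they bear on a comparison. Between 17 and 28 barcodes were shared by any pair of libraries.

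Cells were placed by lineage markers that include no member gene. A cell entered a gate when it had a UMI of at least 3 markers of that cell type and of at least 2 more markers than of any other. T cells were gated by Cd3d, Cd3e, Cd3g, Lat, Cd5 and Cd6, NK cells by markers such as Ncr1 and Klrb1c, B cells by markers such as Cd79a, Cd79b and Ms4a1, alveolar macrophages by Ear1, Krt79, Marco and Atp6v0d2, neutrophils by S100a8, S100a9 and Retnlg, and fibroblasts by Dcn, Pdgfra, Col1a2 and Col3a1. Of the 8 T cell markers 6 were in the tables. Gates of at least 50 cells in each library compared were T cells (1536, 956, 1182 and 1235 cells in NB, then 2 M, 10 M and 18 M), NK cells (136, 437, 545 and 115), B cells (2070, 2422, 3212 and 2588), neutrophils (586, 233, 394 and 493), alveolar macrophages (160, 116, 213 and 422) and fibroblasts (139, 101, 376 and 182). The UMIs of a gate were summed per library and expressed as CPM of that sum. Reads of this chemistry come from the 3′ end of a transcript, so CPM values need no correction for gene length. The 95% intervals of CPM (exact Poisson), of ratios (exact conditional binomial) and of shares of cells (Clopper-Pearson) account for counting error alone and leave out variation among mice and the clumping of UMIs in single cells.

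Summed over a class, the cell cycle genes were higher in 18 M than in 2 M in T cells, NK cells and B cells. In these gates the mitotic members differed more than the S phase members. Their ratios were 2.15 against 1.66 in T cells, 2.76 against 2.03 in NK cells and 1.62 against 1.27 in B cells. The gap was wider with Cenpa left out of the mitotic members. In alveolar macrophages only the mitotic sum was higher, and the S phase and other replication sums were within counting error of 2 M. The largest single contributor to the mitotic sum was Cenpa, the histone H3 variant that marks centromeres, with 49.95% of the mitotic UMIs of T cells, 65.04% of those of B cells and 57.34% of those of NK cells over the 4 libraries. Cenpa was not higher in 18 M in these gates, so the sum is given with and without it, a choice made after seeing the data. No member was left out of the S phase sum. With all 27 mitotic members, T cells had 327, 337, 319 and 724 CPM in NB, then 2 M, 10 M and 18 M. Without Cenpa, the 26 remaining members summed to 142, 91.0, 121 and 499 CPM. The S phase members of T cells summed to 376, 329, 353 and 546 CPM. In both of these last sums 18 M was highest, followed by NB, 10 M and 2 M.

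In NK cells, the 26 mitotic members without Cenpa summed to 112, 129, 105 and 978 CPM in NB, then 2 M, 10 M and 18 M, and the S phase members to 391, 440.1, 407 and 892 CPM. In B cells, the same sums were 77.2, 52.5, 45.9 and 252.5 CPM for the mitotic members and 262, 275, 235 and 349 CPM for the S phase members. In alveolar macrophages, they were 139, 193, 133 and 369 CPM for the mitotic members, against 181, 230.4, 155 and 238 CPM for the S phase members. The mitotic sums of these 3 gates were highest in 18 M, whereas the S phase sum of alveolar macrophages was nearly as high in 2 M. Fibroblasts had the lowest mitotic sums of the 6 gates, at 20.9, 27.9, 27.3 and 86.4 CPM, beside S phase sums of 219, 197, 196 and 193 CPM.

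**Figure D1:**
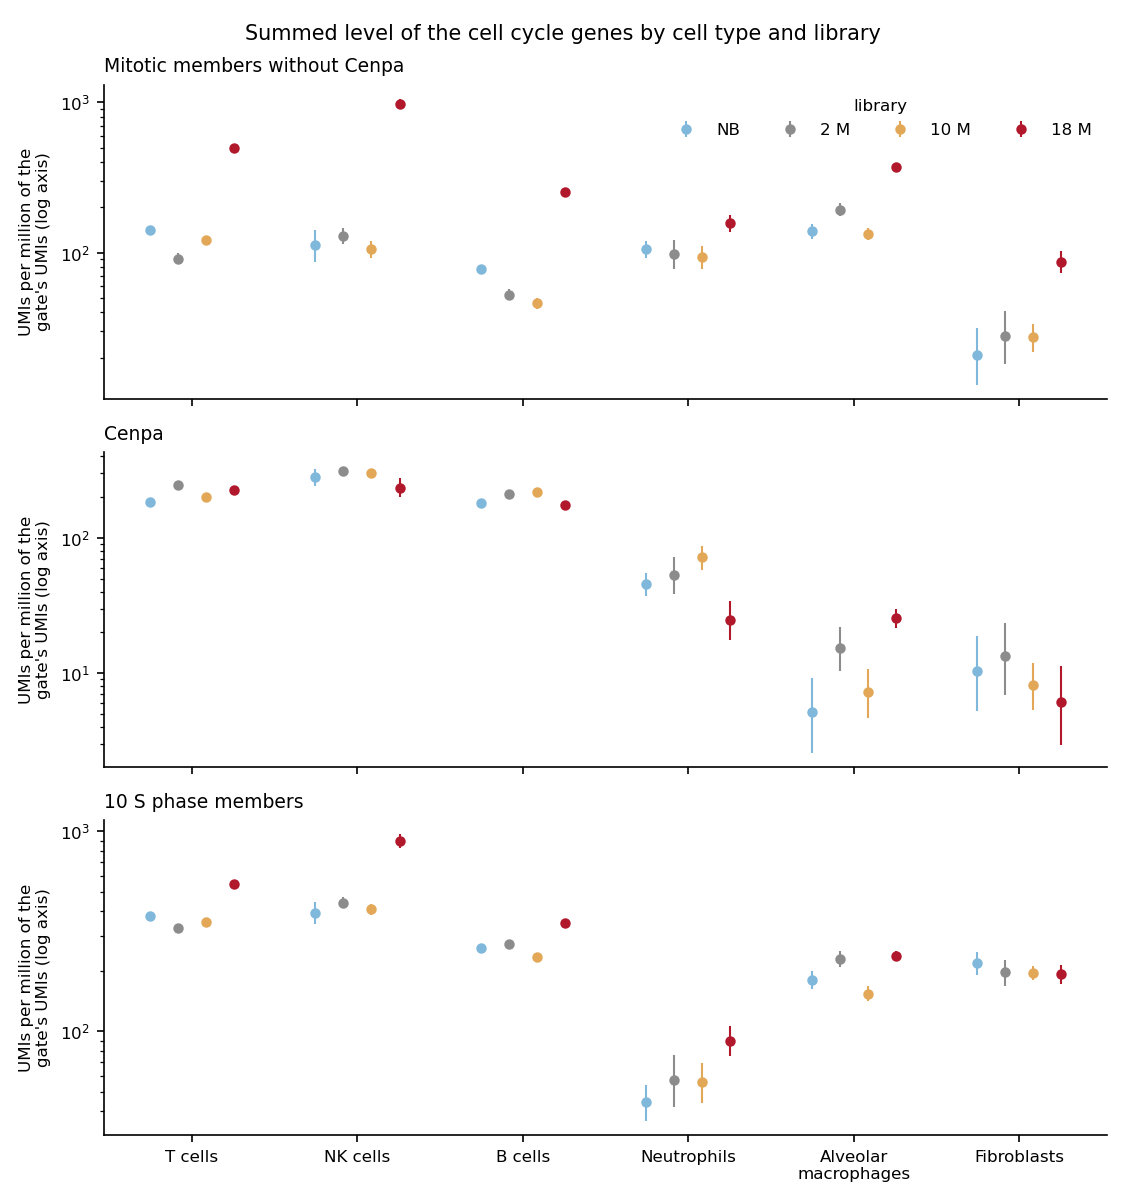
Summed level of the 26 mitotic members without Cenpa, of Cenpa and of the 10 S phase members in UMIs per 1000000 of the gate's UMIs (y axis, log scale) in 6 gates (x axis) and 4 libraries (colours). Points are sums over a gate and bars are exact Poisson intervals of 95%. The 18 M point of the mitotic sum lies above the others in all 6 gates, at 499 CPM in T cells against 91.0 CPM in 2 M, while Cenpa in T cells lies at 225 CPM in 18 M against 246 CPM in 2 M.

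In T cells, 35 of the 45 members were higher past 2-fold in 18 M than in 2 M and 0 were lower, among members with at least 10 UMIs over both libraries. Of all 11627 genes with at least 10 UMIs, 11.8% were higher and 3.32% lower by the same rule. Mitotic members made up 23 of the 35, of 27 measured, S phase members 5 of 10 and other replication members 7 of 8. The median log2 ratio was 2.83 for the mitotic members (2.73 with Kif2c, which had no UMI in 2 M, set at its bound), 0.96 for the S phase members and 2.03 for the other replication members, against 0.23 over all genes. The interval of the ratio, which covers counting error alone, excluded 1 for 41 members on the higher side and for 1, Cenpa, on the lower side. The share of all genes with such an interval is not given here, so this count has no background beside it.

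The mitotic sum of T cells was 2.15 times that of 2 M in 18 M (2.05 to 2.26), and 5.49 times (5.03 to 5.99) without Cenpa. Mki67 (chr7:135689784-135716361, minus strand), whose protein coats mitotic chromosomes and serves as a marker of cycling cells, had 10.9, 8.50, 9.85 and 81.3 CPM in NB, then 2 M, 10 M and 18 M. Its ratio of 18 M to 2 M was 9.57 (7.27 to 12.8), with UMIs in 106 of 1235 cells against 9 of 956 cells. Top2a (chr11:98992943-99024189, minus strand), the topoisomerase that untangles replicated DNA, had 32.9, 20.3, 24.7 and 116 CPM, a ratio of 5.69 (4.74 to 6.88). Both genes were low in the 3 other libraries and stood apart in 18 M. Cenpa (chr5:30666777-30674830, plus strand) had 185, 246, 199 and 225 CPM, a ratio of 0.914 (0.853 to 0.98), and thus differed little between libraries.

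Among the other mitotic members of T cells, the ratio of 18 M to 2 M ran from 1.05 for Kif20a to 18.5 (10.1 to 37.5) for Ube2c. Ube2c, the ubiquitin conjugating enzyme of the anaphase-promoting complex, was at 30.8 CPM in 18 M and at 1.67 CPM in 2 M. Its gene overlaps Tnnc2 on the other strand. Kif2c, a kinesin that corrects wrong attachments of chromosomes, had 19 UMIs in 18 M and 0 in 2 M, at least 5.69-fold higher against a floor of 3 UMIs in 2 M. Ccnb2, a mitotic cyclin, was higher 15.9-fold, Cenpf, a kinetochore protein, 13.6-fold, and Birc5, the survivin subunit of the chromosomal passenger complex, 10.7-fold, with 24.3 CPM against 2.28 CPM. Kif23, a kinesin of the midbody, was higher 2.64-fold. The members not past 2-fold were Cenpa, Kif20a, Aurka at 1.65 (0.98 to 2.83) and Cdc20 at 1.92.

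The S phase members of T cells were 1.66 times as high in 18 M as in 2 M in sum (1.58 to 1.75). Pcna (chr2:132249162-132253314, minus strand) had 100.1, 97.3, 105 and 155 CPM in NB, then 2 M, 10 M and 18 M, a ratio of 1.6 (1.45 to 1.76). Mcm6 (chr1:128331590-128359664, minus strand) had 78.3, 49.6, 67.7 and 76.1 CPM, a ratio of 1.53, and was as high in NB as in 18 M. Mcm4 had 48.7, 50.2, 49.6 and 53.9 CPM, a ratio of 1.07 (0.924 to 1.25), which is within counting error of 1. The highest ratio in the class was 3.13 for Rrm2, the S phase subunit of ribonucleotide reductase, with 20.9 CPM against 6.68 CPM. Tyms, Mcm5, Rrm1 and Mcm3 lay between 2.04 and 2.37, and Mcm7 and Mcm2 at 1.87 and 1.52.

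The other replication members of T cells summed to 32.0, 22.2, 26.2 and 77.7 CPM, a ratio of 3.51 (2.92 to 4.24) in 18 M. Uhrf1 (chr17:56303321-56323486, plus strand), which recruits maintenance DNA methylation to newly copied DNA, had 6.92, 7.28, 6.25 and 23.7 CPM, a ratio of 3.26 (2.36 to 4.58). Ccne2, a cyclin of the entry into S phase, had 5.17, 3.64, 4.52 and 7.64 CPM, a ratio of 2.1. Gins2, a subunit of the replicative helicase, had 4.18, 3.79, 5.85 and 6.55 CPM, a ratio of 1.73, the lowest of the class. Esco2, which acetylates cohesin during replication, was the highest at 8.43, with 75 UMIs against 8.

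**Figure D2:**
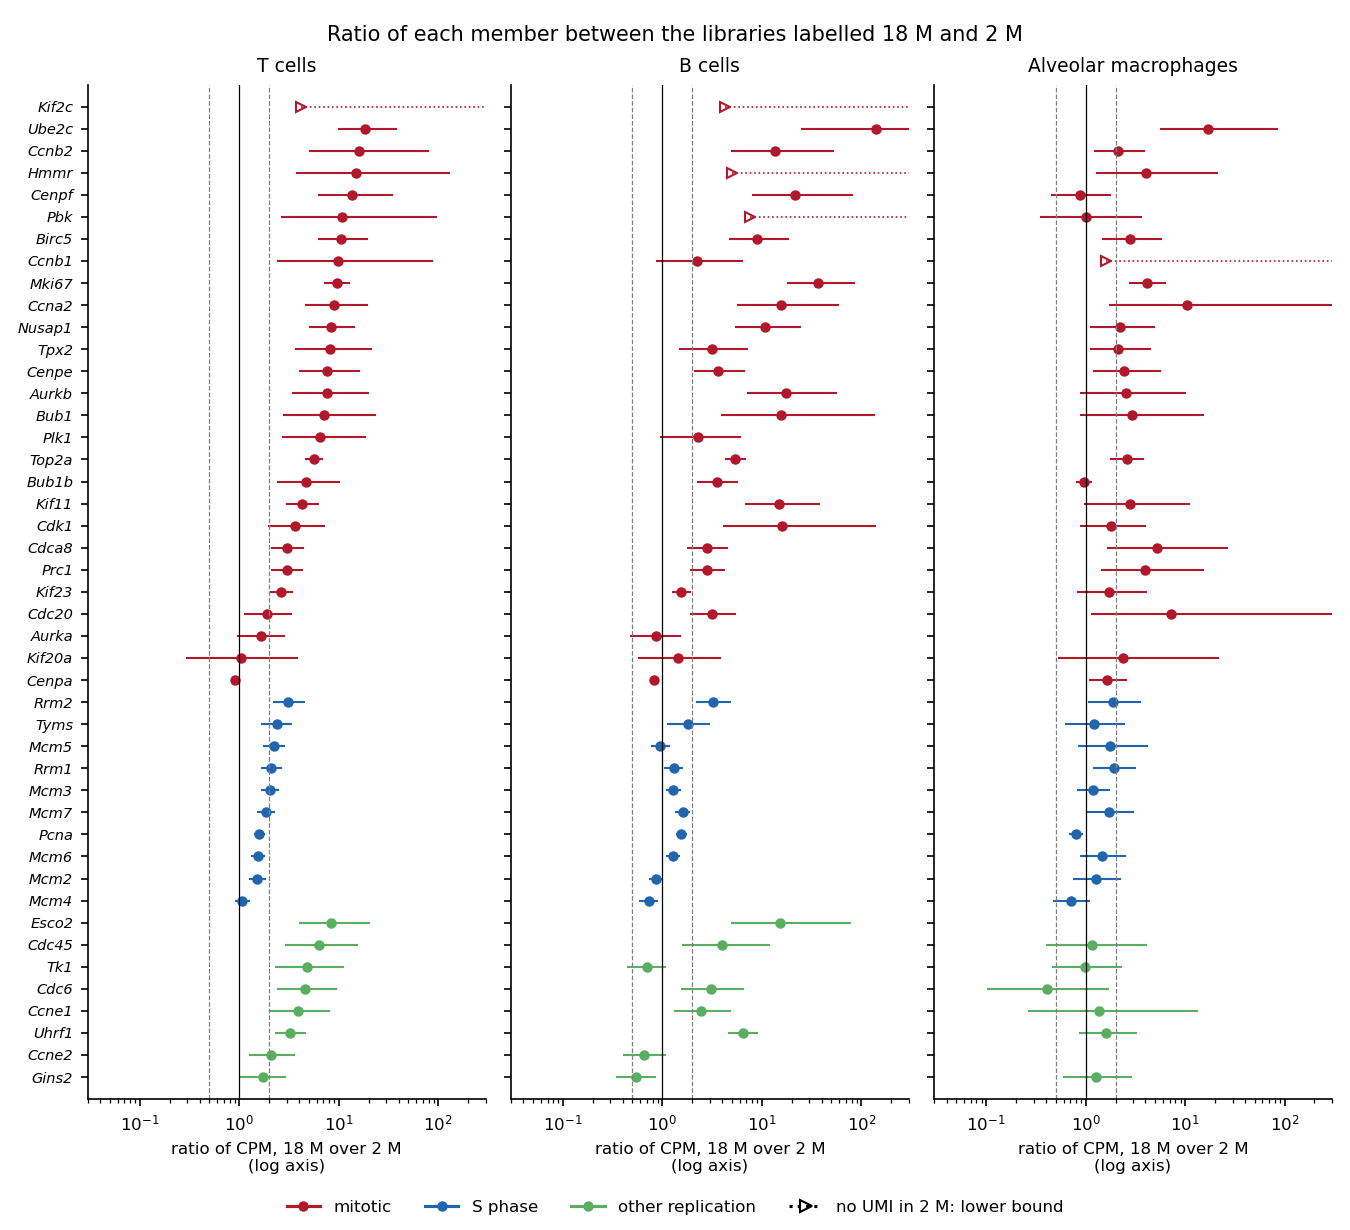
Ratio of CPM of each of the 45 members, 18 M over 2 M, in T cells, B cells and alveolar macrophages (x axis, log scale), with members listed down the page, coloured by class and ordered by their ratio in T cells. Bars are exact conditional intervals of 95%, dashed lines mark a 2-fold difference in either direction, and open triangles give a bound where 2 M had no UMI. Mitotic members lie farthest to the right in T cells and B cells, Ube2c at 18.5 in T cells, while Mcm4 lies at 1.07 in T cells and 0.732 in B cells.

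Of further genes of the cycle that are not members, 21 of 30 other mitotic genes with at least 10 UMIs were higher past 2-fold in T cells of 18 M, 7 of 25 other replication genes and 7 of 19 cell cycle regulators, against 11.8% of all genes tested. The regulator Ccnd1 was lower past 2-fold and no gene of the other lists was, against 3.32% of all genes. The genes with the most UMIs in the mitotic list were Smc4, a condensin subunit (129, 184, 144 and 282 CPM in NB, then 2 M, 10 M and 18 M), Cks2, a subunit of cyclin-dependent kinases (94.2, 88.8, 106 and 108 CPM), and Pttg1, the securin that holds back the separation of sister chromatids (117, 84.1, 115 and 58.2 CPM). Pttg1 was the lowest of its list, with a ratio of 0.693 (0.609 to 0.787). In the replication list the most abundant were Dbf4 at a ratio of 0.805, Slbp at 1.26 and Dut at 1.56, and among the regulators the D cyclin Ccnd2 at 1.14, Ccnd3 at 1 and Cdk6 at 1.52.

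In NK cells, the mitotic sum was 2.76 times as high in 18 M as in 2 M (2.5 to 3.04) with Cenpa. The 26 mitotic members without Cenpa were 7.57 times as high in 18 M as in 2 M (6.55 to 8.78), the S phase members 2.03 times (1.82 to 2.25) and the other replication members 6.89 times (4.71 to 10.3). Of 35 members with at least 10 UMIs, 27 were higher past 2-fold and 0 lower, against 6.02% higher and 11.3% lower of all genes tested. The median log2 ratio of the members was 2.69, against -0.04 over all genes. The gate held 115 cells in 18 M, and 5 of them carried 57.4% of the mitotic UMIs without Cenpa. With the 5 cells of most mitotic UMIs left out of each library, the log2 ratio of the mitotic sum was 0.74, against 1.46 with all cells.

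Top2a had 27.5, 33.9, 22.1 and 248 CPM in NB, then 2 M, 10 M and 18 M of the NK gate, a ratio of 7.32 (5.49 to 9.85). Mki67 had 4.85, 12.5, 13.2 and 204 CPM, a ratio of 16.4 (10.6 to 26.2), with UMIs in 20 of 115 cells against 12 of 437 cells. Cenpa had 279.8, 311, 301 and 235 CPM, a ratio of 0.756 (0.631 to 0.901), and was thus lower in 18 M in this gate. Pcna had 80.9, 105 and 93.2 CPM in NB, 2 M and 10 M and 284 CPM in 18 M, a ratio of 2.71 (2.22 to 3.31). Mcm6 had 115, 117, 98.8 and 177 CPM, a ratio of 1.51, and Mcm2 had 51.8, 61.8, 61.3 and 57.6 CPM, a ratio of 0.932 (0.633 to 1.35), which is within counting error of 1. Cdc45, a helicase subunit, had 3.24, 1.99, 2.98 and 23.6 CPM, a ratio of 11.8 (3.82 to 48.7), Uhrf1 had 6.47, 6.48, 2.55 and 19.2 CPM, and Gins2 had 6.47, 5.98, 7.24 and 5.91 CPM. Esco2 had 12 UMIs in 18 M and 0 in 2 M, at least 11.8-fold higher.

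In B cells, 29 of 45 members were higher past 2-fold in 18 M than in 2 M and 0 were lower, against 14.0% higher and 5.50% lower of the 12344 genes tested. The split between classes was wider than in T cells, with 23 of 27 mitotic members, 1 of 10 S phase members (Rrm2, 3.23) and 5 of 8 other replication members past 2-fold. The mitotic sum was 1.62 times that of 2 M (1.54 to 1.7) and 4.81 times (4.38 to 5.3) without Cenpa. The S phase sum was 1.27 times that of 2 M (1.21 to 1.33). The median log2 ratio was 3.1 for the mitotic members (2.54 with the 3 members at 0 UMIs in 2 M set at their bounds) and 0.37 for the S phase members, against 0.15 over all genes.

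Mki67 had 48, 8, 14 and 316 UMIs in B cells of NB, then 2 M, 10 M and 18 M, or 5.28, 0.819, 1.12 and 29.8 CPM, a ratio of 36.4 (18.2 to 85). It had a UMI in 97 of 2588 cells of 18 M and in 8 of 2422 cells of 2 M. Top2a had 18.5, 10.5, 11.1 and 57.1 CPM, a ratio of 5.42 (4.39 to 6.74). Kif23 had 14.1, 16.5, 11.7 and 25.5 CPM, a ratio of 1.55 (1.27 to 1.9). Cenpa was again the most abundant mitotic member and was lower in 18 M, with 182, 212, 217 and 175.5 CPM, a ratio of 0.826 (0.776 to 0.88). Ube2c (chr2:164769898-164778822, plus strand) had 154 UMIs in 18 M and 1 in 2 M, a ratio of 142 with an interval of 25.1 to 5636. Pbk, Hmmr and Kif2c had 0 UMIs in 2 M and were at least 9.82-fold, 6.75-fold and 5.83-fold higher. Aurka, the kinase of the spindle poles, was at 0.855 and did not share the difference.

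Pcna had 65.0, 66.7, 58.0 and 104 CPM in B cells, a ratio of 1.55 (1.41 to 1.71). Mcm2 had 42.6, 47.4, 43.1 and 40.7 CPM, a ratio of 0.859 (0.752 to 0.982), and Mcm6 had 35.9, 32.8, 27.1 and 42.0 CPM, a ratio of 1.28. The lowest S phase member was Mcm4 at 0.732 (0.600 to 0.891). The helicase subunits thus lay on both sides of 1, with Mcm7 at 1.6 and Mcm5 at 0.957. Uhrf1 had 5.39, 4.81, 3.2 and 30.8 CPM, a ratio of 6.41 (4.71 to 8.89), the highest level of this gene in any of the 6 gates. Gins2 had 4.18, 6.04, 6.31 and 3.3 CPM, a ratio of 0.546 (0.349 to 0.844), and Tk1, thymidine kinase, had 5.06, 5.83, 4.4 and 4.05 CPM, a ratio of 0.695 (0.456 to 1.05).

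Outside the members, 15 of 29 other mitotic genes, 3 of 25 other replication genes and 9 of 19 regulators were higher past 2-fold in B cells of 18 M, against 14.0% of all genes tested, a share that the replication genes did not exceed. The replication gene Prim1 was lower past 2-fold and no other gene of the 3 lists was, against 5.50% of all genes. Ccnd2, a D cyclin of early G1, had 205, 181, 126 and 488 CPM, a ratio of 2.7 (2.56 to 2.85), and Pttg1 had 90.3, 73.7, 94.3 and 44.2 CPM, a ratio of 0.6. Genes of lymphocyte precursors were also higher in this gate, with 431 UMIs of Rag1, which cuts DNA in antigen receptor rearrangement, in 18 M against 4 in 2 M, 152 against 1 of Vpreb1 and 122 against 0 of Igll1, which form the surrogate light chain of precursor B cells. Of the precursor list, which also holds the T cell genes Cd4 and Cd8b1, 9 of 9 genes with at least 10 UMIs were higher past 2-fold. Ptcra, with 2 UMIs in 18 M and 7 in 2 M, went the other way and had too few UMIs to be counted. Over all 2588 B cells of 18 M, 199 had a Rag1 UMI and 1087 a Vpreb3 UMI. Of the 81 among them with at least 3 mitotic members besides Cenpa, 15 had a Rag1 UMI and 45 a Vpreb3 UMI. The T cell gene Cd4 had a UMI in 51 of all 2588 and in 10 of the 81, and Cd8b1 in 21 and in 3. These counts are not thinned, so depth may differ between the sets. Rag1 was also higher in T cells, with 54 UMIs in 18 M against 0 in 2 M. The part of cells with precursor genes in the class sums was not tested.

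In alveolar macrophages, the mitotic sum was higher in 18 M than in 2 M, while the S phase sum differed by less than counting error. The mitotic sum was at a ratio of 1.89 (1.71 to 2.11), and 1.91 (1.72 to 2.14) without Cenpa, whereas the S phase sum was at 1.04 (0.931 to 1.15) and the other replication sum at 1.19 (0.859 to 1.68). Of 40 members with at least 10 UMIs, 18 were higher and 1 lower past 2-fold, against 8.35% higher and 4.21% lower of all genes tested. All 18 were mitotic members, of 24 measured, and the lower one was Cdc6 at 0.408. The median log2 ratio of the mitotic members was 1.29 (1.22 with Ccnb1, which had no UMI in 2 M, at its bound) and that of the S phase members 0.43, against -0.03 over all genes. The S phase median lay above the S phase sum, in which Pcna, at a ratio below 1, took the largest share.

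The most abundant mitotic member of alveolar macrophages was Bub1b (chr2:118598211-118641591, plus strand), a kinase-like protein of the spindle checkpoint, with 116, 99.8, 87.9 and 95.4 CPM in NB, then 2 M, 10 M and 18 M and a ratio of 0.956 (0.812 to 1.13). It took 36.93% of the mitotic UMIs of this gate. Mki67 had 3.76, 14.4, 7.25 and 59.1 CPM, a ratio of 4.1 (2.81 to 6.22), and Top2a had 5.63, 17.4, 8.15 and 45.1 CPM, a ratio of 2.59 (1.82 to 3.8). Both were lowest in NB and highest in 18 M. Ube2c was at 25.3 CPM in 18 M and at 1.49 CPM in 2 M, a ratio of 17 (5.71 to 83.4). Cenpf was the lowest mitotic member of the class and was not past 2-fold.

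Pcna took 53.5% of the S phase UMIs of alveolar macrophages, with 116, 132, 105 and 105 CPM, a ratio of 0.798 (0.69 to 0.925). Mcm3 had 20.2, 20.9, 10.6 and 24.8 CPM, a ratio of 1.19, and Rrm1 had 5.63, 10.9, 6.95 and 20.9 CPM, a ratio of 1.92 (1.21 to 3.17), the highest of the class. No S phase member was past 2-fold. Uhrf1, Gins2 and Tk1 were at ratios of 1.62, 1.26 and 0.986. Of the 2 M macrophages, 5 cells held 43.44% of the mitotic UMIs without Cenpa, and with the 5 highest cells left out of each library the log2 ratio of the mitotic sum was 1.38, against 0.92 with all cells. Without the upper limits on genes and UMIs it was 0.68.

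Neutrophils leave the bone marrow after their last division, and their members were few and low. Of 8 members with at least 10 UMIs, 3 were higher and 1 lower past 2-fold in 18 M, against 10.7% higher and 8.44% lower of all genes tested. Kif23 (chr9:61915905-61946774, minus strand) took 49.68% of the mitotic UMIs of neutrophils, with 85.6, 78.1, 71.2 and 82.7 CPM, a ratio of 1.06 (0.776 to 1.46), a level above that in T cells, B cells or alveolar macrophages of any library. Cenpa had 45.5, 53.3, 71.9 and 24.9 CPM, a ratio of 0.467 (0.292 to 0.742). Top2a had 2.76, 2.48, 1.48 and 22.9 CPM, where the 2 M value is 2 UMIs, and 1 cell held 26.07% of the mitotic UMIs of 18 M without Cenpa. Mki67 was at 1.84, 7.43, 5.19 and 13.4 CPM and Pcna at 20.7, 26.0, 29.7 and 43.7 CPM, a ratio of 1.68 (1.01 to 2.89). As class sums, the mitotic members without Cenpa were at 157 CPM in 18 M against 97.9 CPM in 2 M, a ratio of 1.61 (1.24 to 2.1), and the S phase members at a ratio of 1.58 (1.12 to 2.26). The other replication members had 25 UMIs in 18 M against 3 in 2 M, a ratio of 4.52 (1.38 to 23.4). With Cenpa, the mitotic sum was at a ratio of 1.205 (0.9695 to 1.504), within counting error of 1. The mitotic sum without Cenpa, the S phase sum and the other replication sum were thus higher in 18 M in this gate too. With the 5 highest cells left out, however, the mitotic ratio without Cenpa was 1.24 (0.915 to 1.7), also within counting error of 1.

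In fibroblasts, 10 of 22 members with at least 10 UMIs were higher and 1, Cenpa at 0.461 (0.178 to 1.17), lower past 2-fold in 18 M than in 2 M, against 11.1% higher and 7.20% lower of all genes tested. The mitotic sum without Cenpa was 3.1 times as high (2.02 to 4.95), and the S phase sum was at 0.979 (0.811 to 1.18). Mki67 had 1.9, 1.11, 2.43 and 12.3 CPM, with UMIs in 2, 1, 6 and 14 cells, a ratio of 11.1 whose interval of 1.77 to 459 rests on 20 UMIs against 1. Top2a had 0, 2.23, 2.73 and 9.25 CPM and Cdc20, an activator of the anaphase-promoting complex, 2.85, 1.11, 4.55 and 6.79 CPM. Pcna had 103, 98.1, 94.0 and 87.6 CPM, a ratio of 0.893 (0.68 to 1.18), Rrm1 39.9, 32.3, 26.7 and 26.5 CPM and Mcm4 36.1, 29.0, 27.0 and 25.3 CPM. The 3 leading S phase members of fibroblasts thus stood above the leading mitotic members at every age. Of the other replication members, Ccne1 had 13.3, 16.7, 13.04 and 18.5 CPM, the highest level of this cyclin among the 6 gates, Cdc6 had 6.65, 4.46, 14.3 and 1.23 CPM and Uhrf1 0.95, 4.46, 3.03 and 12.96 CPM. In the 18 M fibroblasts with an Xist and no Y-linked UMI the log2 ratio of the mitotic sum was 0.39 (-0.33 to 1.1), against 1.17 in all 18 M fibroblasts, so that its interval then included 0.

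**Figure D3:**
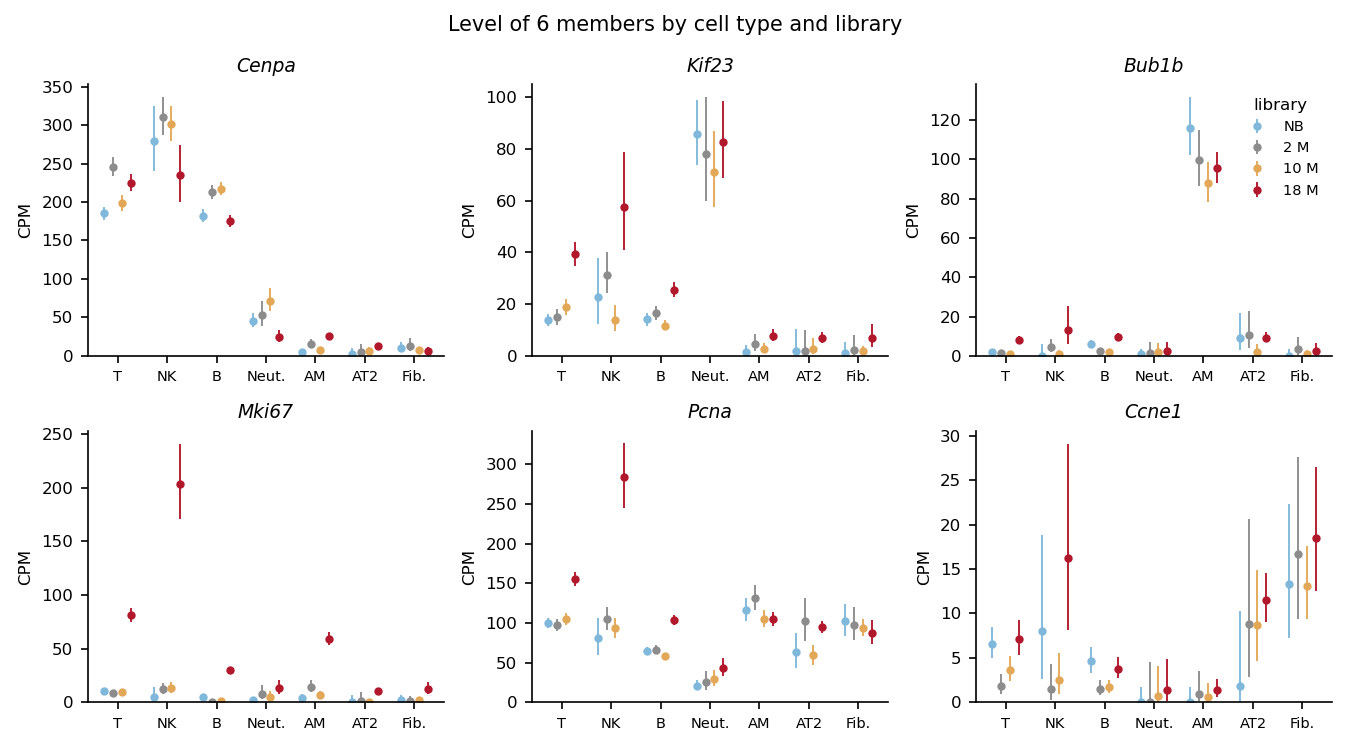
CPM of Cenpa, Kif23, Bub1b, Mki67, Pcna and Ccne1 (y axis, 1 panel per gene, linear scale) in T cells, NK cells, B cells, neutrophils, alveolar macrophages (AM), alveolar type II cells (AT2) and fibroblasts (x axis) of the 4 libraries (colours). Points are gate sums and bars exact Poisson intervals of 95%. Kif23 is highest in neutrophils, at 82.7 CPM in 18 M, Bub1b in alveolar macrophages, at 95.4 CPM in 18 M, and Cenpa in lymphocytes, at 225 CPM in T cells of 18 M, while Mki67 in T cells is at 81.3 CPM in 18 M against 8.50 CPM in 2 M.

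Innate lymphoid and erythroid cells were found almost entirely in the library labelled 18 M and had no counterpart to compare. Innate lymphoid cells (140 cells in 18 M and 5 to 8 in the others) had 662 CPM of the mitotic members (615 to 712), with Top2a at 145 CPM (123 to 169), Mki67 at 96.7 CPM and Cenpa at 93.0 CPM, and 329 CPM of the S phase members. Erythroid cells (179 cells in 18 M and 2 or 3 in the others) had 826 CPM of the mitotic members (778 to 877), 161 CPM of the S phase members and Mki67 at 174 CPM, with Mki67 UMIs in 21 cells. In this gate 5 cells held 67.72% of the mitotic UMIs without Cenpa. Alveolar type II cells (36, 40, 104 and 555 cells) had mitotic sums of 48.2, 54.7, 32.3 and 123 CPM and S phase sums of 115, 222, 116 and 187.5 CPM. Their 2 M gate had under 50 cells and was not compared, and the mitotic sum of 18 M (115 to 132) lay above that of 10 M (23.8 to 42.8). In NB, endothelial cells had 519 CPM of the mitotic members, of which 1 cell held 182 of 192 UMIs without Cenpa, and the 56 plasma cells had 483 CPM, with 84 of 243 such UMIs in 1 cell. A sum that rests on 1 cell describes that cell.

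A single UMI may come from free RNA, so cells with UMIs of at least 3 mitotic members were counted after each cell was thinned to 1000 UMIs, which left out 123, 55, 102 and 495 shallower cells in NB, then 2 M, 10 M and 18 M. Over all cells, the share was 0.272%, 0.164%, 0.142% and 1.79% (1.51 to 2.11 in 18 M). These counts include Cenpa. In T cells the share was 0.587%, 0.418%, 0.508% and 3.73% (46 of 1235 cells in 18 M, 2.74 to 4.94). Without thinning it was 6.12%, 5.02%, 6.51% and 13.04%, and with Cenpa also left out 2.93%, 0.732%, 3.05% and 7.94%. In B cells the share was 0.0485%, 0.0828%, 0 and 1.13% (0.759 to 1.62 in 18 M), where 0 of 3208 thinned cells of 10 M allows a share of up to 0.0935%. Without thinning it was 2.75%, 1.11%, 0.747% and 4.52%, and with Cenpa also left out 1.16%, 0.248%, 0.0623% and 3.13%. In every gate with 50 or more cells in each library, the thinned 18 M share was the highest of the 4. In neutrophils and in fibroblasts that share rested on 1 cell. Without thinning, the share of neutrophils was higher in NB, at 0.853%, than in 18 M, at 0.609%. With Cenpa also left out, it was 0.171% in NB and 0.406% in 18 M.

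NK cells had 0, 0.23%, 0.369% and 7.83% such cells, the last from 9 of 115 cells (3.64 to 14.3). Alveolar macrophages had 0, 0.87%, 0 and 3.56% (2.01 to 5.81 in 18 M), where the zeros allow up to 1.88% in NB and 1.42% in 10 M, and 3.13%, 11.2%, 7.98% and 19.9% before thinning at median depths of 13346, 17916.5, 15982 and 13914 UMIs. Innate lymphoid cells of 18 M had 4.29% (1.59 to 9.1) and erythroid cells 3.93% (1.6 to 7.94). In fibroblasts the share was 0 in NB, 2 M and 10 M, which allows up to 2.26%, 3.03% and 0.84%, and 0.676% in 18 M, 1 cell, so a difference was not detectable in the thinned counts. Without thinning it was 7.14% in 18 M (13 of 182 cells, 3.86 to 11.9) and 0.266% in 10 M, 1 cell, with none in NB and 2 M. Neutrophils serve as a background, with 0, 0, 0 and 0.213%. For Mki67 itself, 8.58% of T cells of 18 M had a UMI at a median depth of 5238 UMIs, against 1.22% of neutrophils of 18 M at a median depth of 2469 UMIs. After thinning these shares were 3.08% and 0.213%. In 2 M, 0.941% of T cells and 1.72% of neutrophils had an Mki67 UMI, so the T cell share there was no higher than this background.

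**Figure D4:**
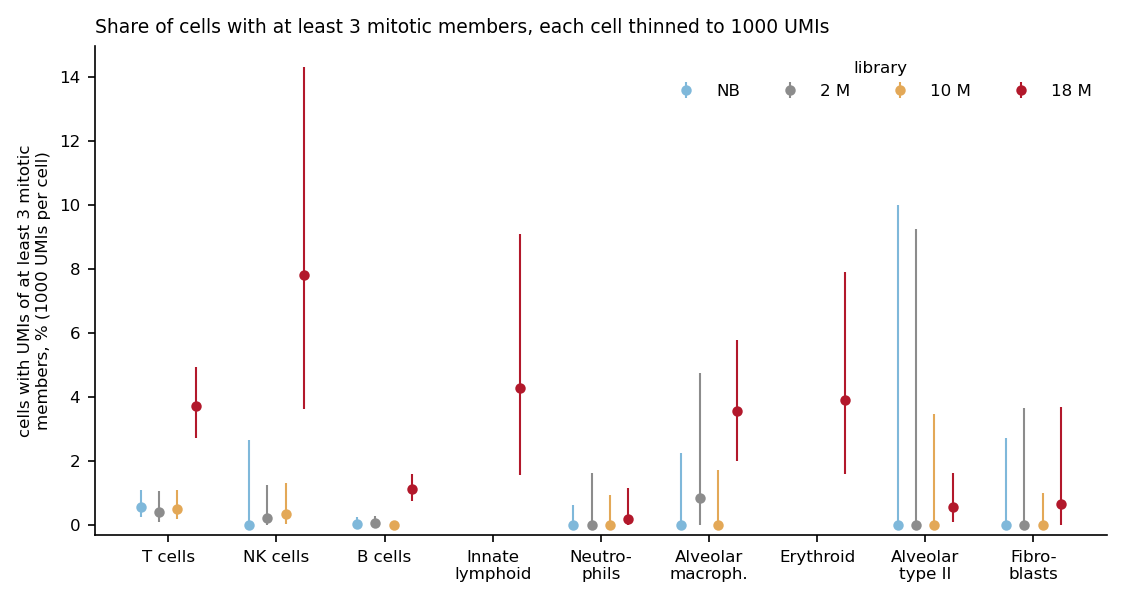
Share of cells with UMIs of at least 3 mitotic members after thinning each cell to 1000 UMIs (y axis, percent) in 9 gates (x axis) and 4 libraries (colours); bars are exact Clopper-Pearson intervals of 95%. Innate lymphoid and erythroid cells are drawn for 18 M only. The 18 M share is 3.73% in T cells and 7.83% in NK cells, against 0.418% and 0.23% in 2 M.

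The mitotic members were above their 2 M level in 18 M cells with Xist and in 18 M cells with Y-linked RNA. Over all cells kept, those with an Xist and no Y-linked UMI had 315 CPM of the mitotic members without Cenpa and a share of 2.14% with at least 3 mitotic members, and those with a Y-linked and no Xist UMI had 310 CPM and 1.93%. In T cells the values were 641 CPM and 4.99% in 401 Xist cells and 474 CPM and 3.58% in 642 Y-linked cells, and in B cells 237 CPM in 899 Xist cells and 286 CPM in 1021 Y-linked cells. Both sets lay above 2 M, at 91.0 CPM in T cells and 52.5 CPM in B cells.

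Members differed in how much of their RNA lay in cells that also held other mitotic members. In T cells of 18 M, 98 cells (7.94%) had at least 3 mitotic members besides Cenpa, at a median of 10757.5 UMIs, against 4732 UMIs in the 755 cells with none. These cells, counting at least 3 mitotic members other than the gene itself and Cenpa, held 94.8% of the Mki67 UMIs, 87.3% of Top2a, 96.1% of Birc5, 96.4% of Nusap1, a microtubule-bundling spindle protein, and 98.7% of Esco2. They held 82.3% of Rrm2 and 76.7% of Mcm5, but 38.8% of Pcna, 40% of Mcm4, 39.4% of Mcm6 and 36.3% of Mcm2. Kif23 was at 35.4% and Aurka at 54.5%. Cenpa had 14.6% of its UMIs there, and its level was 212 CPM in these cells and 229 CPM in cells with none. Of the S phase members named, Rrm2 and Mcm5 thus had most of their UMIs in these cells. Pcna, Mcm2, Mcm4 and Mcm6 had most of theirs in cells with fewer mitotic members, although their shares were above the 7.94% of cells. The shares of the other S phase members are not given here.

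In B cells of 18 M, 81 cells (3.13%) had at least 3 mitotic members besides Cenpa and held 82.6% of the Mki67 UMIs, 75.9% of Top2a, 94.7% of Kif11, the motor that pushes spindle poles apart, 19.5% of Pcna, 16.9% of Mcm2, 14.8% of Kif23 and 9.34% of Cenpa. Uhrf1 was at 30.9% there, with 135 CPM in these cells and 21.9 CPM in cells with none. In alveolar macrophages, 75 cells (17.8%) held 86.5% of Top2a, 69.4% of Mki67, 90.5% of Rrm2 and 34.7% of Pcna, but 12.2% of Bub1b, whose level was 84.7 CPM in these cells and 91.8 CPM in cells with none. Cenpa in macrophages had 66.2% of its UMIs in such cells, with 80.0 CPM there and 12.1 CPM in cells with none, and Kif23 63%. Which mitotic members had low shares of their UMIs in such cells therefore differed by gate, Cenpa and Kif23 in T cells and B cells and Bub1b in alveolar macrophages. In B cells the shares of Kif23 and Cenpa, 14.8% and 9.34%, were still above the 3.13% of cells. That of Bub1b in macrophages was 12.2%, in cells with at least 3 mitotic members other than Bub1b and Cenpa. The 17.8% of cells counts Bub1b among the members, so it is no reference for this share.

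**Figure D5:**
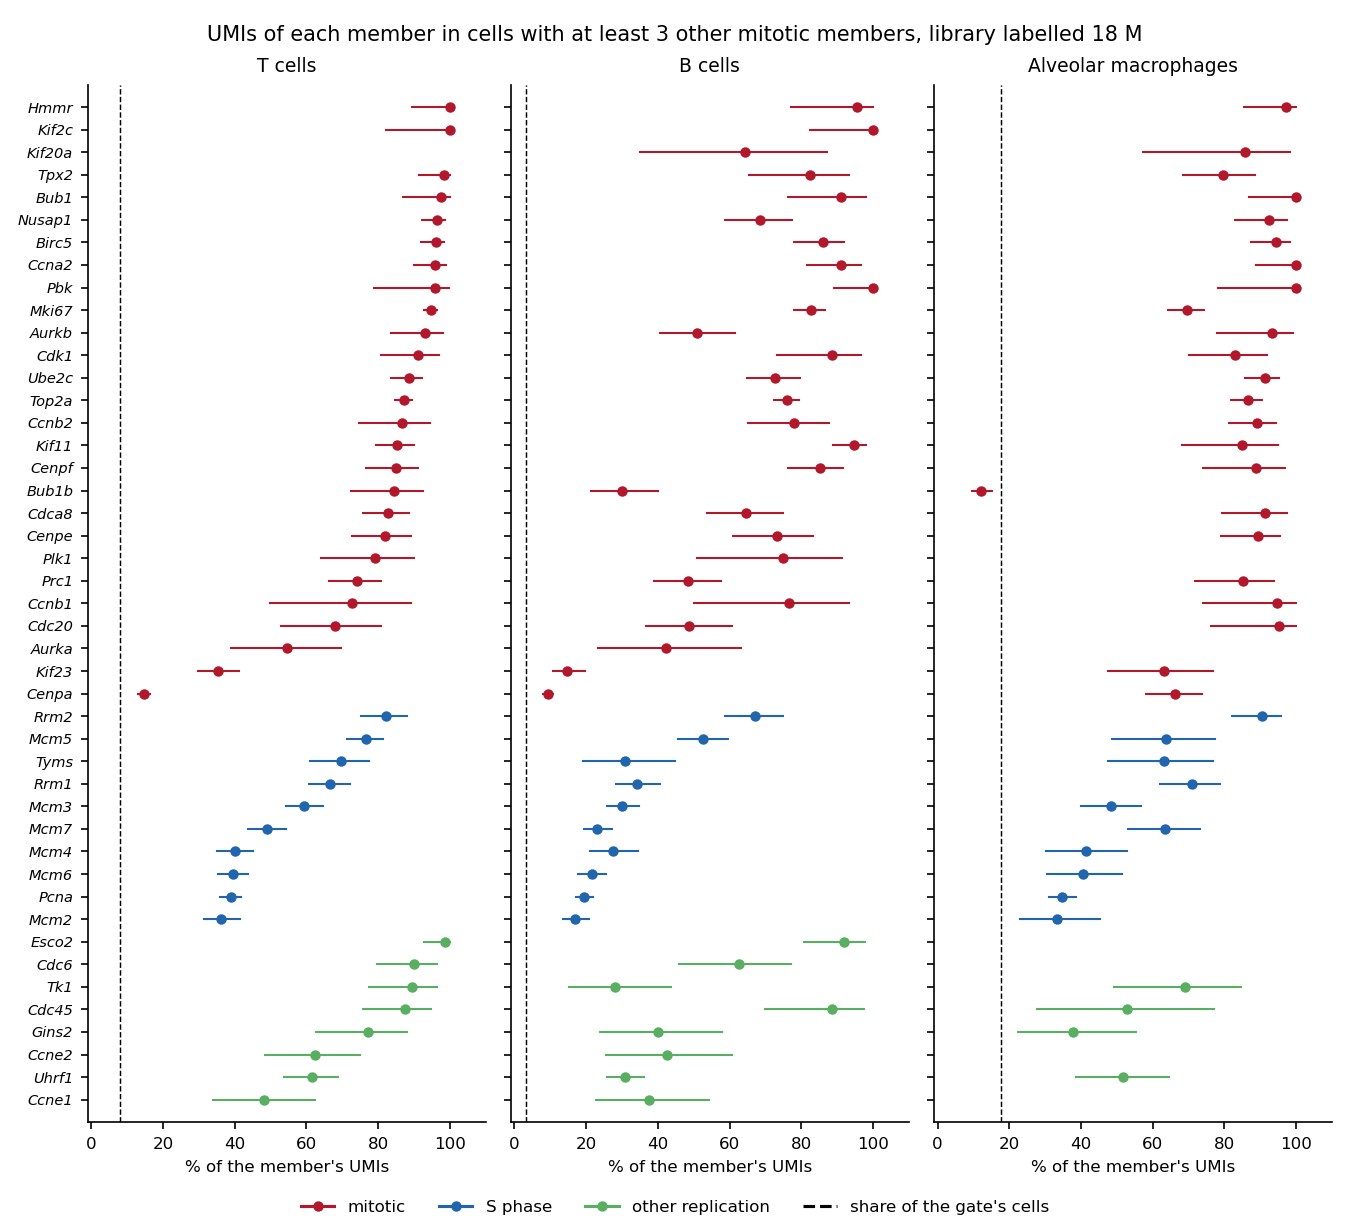
Percent of each member's UMIs (x axis) that lay in cells with at least 3 other mitotic members, Cenpa not counted, in T cells, B cells and alveolar macrophages of the library labelled 18 M, with members listed down the page and coloured by class. Bars are exact binomial intervals of 95%, and members with few UMIs in a gate have no point. The dashed line is the share of the gate's cells with at least 3 mitotic members besides Cenpa. For a mitotic member, the line counts the gene itself and its point does not. Mki67 lies at 94.8% and Cenpa at 14.6% in T cells, where the dashed line is at 7.94%. Bub1b lies at 12.2% in alveolar macrophages, where the line, which counts Bub1b, is at 17.8%.

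S phase and mitotic members were often found in the same cells. Of the 98 T cells of 18 M with at least 3 mitotic members besides Cenpa, 91 (92.9%) also had at least 3 S phase members, against 16.9% of the other T cells. The share was 14 of 14 in NK cells against 24.7%, 55 of 81 (67.9%) in B cells against 7.34%, and 42 of 75 (56%) in alveolar macrophages against 14.4%. These shares are not thinned, and cells with more mitotic members were deeper. After thinning, the share was 9 of 42 (21.4%) in T cells against 1.01%, 4 of 9 (44.4%) in NK cells against 3.77%, 4 of 26 (15.4%) in B cells against 0.354% and 1 of 14 (7.14%) in alveolar macrophages against 0.737%, while 0 of 6 such innate lymphoid cells had at least 3 S phase members. As CPM, the S phase members summed to 970 and 1719 CPM in such T cells of NB and 18 M (45 and 98 cells), against 334 and 328 CPM in T cells with no mitotic member besides Cenpa. In 2 M the 7 such T cells had 1864 CPM, against 304 CPM. S phase RNA was thus present at similar CPM in T cells of NB, 2 M and 18 M with no mitotic member besides Cenpa.

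The comparisons of 10 M and of NB with 2 M use the same 2 M library as that of 18 M, so the 3 are not independent. In T cells, 4 of 40 members with at least 10 UMIs were higher past 2-fold in 10 M and 0 lower, against 5.51% higher and 3.02% lower of all genes tested. The 4 were Ccnb2, Cenpe, Tpx2 and Ube2c, at ratios of 4.09, 2.63, 2.25 and 3.99. In NB, 13 of 42 were higher and 0 lower, against 9.12% and 4.32% of all genes tested. They included the cyclins Ccna2, Ccnb1 and Ccnb2 at 2.25, 5.79 and 4.83, Birc5 at 2.75, Ube2c at 5.47 (2.9 to 11.4), Tk1 at 2.58 and Ccne1 at 3.62, but no S phase member. Cenpa was lower than in 2 M in both, at 0.808 in 10 M and 0.753 in NB. The median log2 ratio of the members was 0.25 in 10 M and 0.58 in NB.

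The mitotic sum of T cells without Cenpa was 1.56 times that of 2 M in NB (1.41 to 1.72) and 1.33 times in 10 M (1.2 to 1.47), and the other replication sum was 1.44 times (1.18 to 1.77) in NB and 1.18 times (0.95 to 1.48) in 10 M. With Cenpa, the mitotic sum of 10 M was at 0.948 (0.895 to 1). In 2 M, 1 T cell held 85 of the 600 mitotic UMIs without Cenpa. These differences are small beside that of 18 M, at 5.49 times.

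In B cells, 2 of 36 members (Aurkb and Ube2c) were higher and 5 (Cdc6, Birc5, Plk1, Kif20a and Tpx2) lower past 2-fold in 10 M, against 2.22% higher and 2.12% lower of all genes tested. In NB, 7 of 36 were higher and 2 lower, against 4.84% higher and 3.80% lower. The 7 were Ccne1 at 3.01, Mki67 at 6.45 (3.03 to 15.8), Cdk1 at 6.99, Aurkb at 5.16, Bub1b at 2.32, Kif11 at 3.99 and Nusap1 at 4.9, and the 2 were Aurka at 0.499 and Kif20a at 0.478. The mitotic sum without Cenpa was 1.47 times that of 2 M in NB (1.31 to 1.65) and at 0.874 in 10 M (0.775 to 0.987).

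In alveolar macrophages, members were lower in NB and in 10 M than in 2 M, a direction that did not hold for the mitotic sum without a few cells. In NB, 0 of 25 members were higher and 13 lower past 2-fold than in 2 M, against 5.72% higher and 3.61% lower of all genes tested. In 10 M, 0 of 26 were higher and 12 lower, against 4.19% higher and 2.96% lower. Mki67 was at 0.261 in NB and 0.503 in 10 M, Rrm2 at 0.189 and 0.162, and Ccnb2 at 0.0591 and 0.19, while Cenpf had 0 UMIs in NB and 14 in 2 M. The mitotic sum without Cenpa was at 0.72 in NB (0.617 to 0.839) and at 0.689 in 10 M (0.6 to 0.792), and the S phase sum at 0.787 (0.686 to 0.902) and 0.671 (0.591 to 0.763). In 2 M, 8 of the 116 macrophages had at least 3 mitotic members besides Cenpa, and these had 864 CPM of the S phase members, against 144 CPM in cells with none. The 2 M library is the common denominator here, and its 5 highest cells held 43.44% of the mitotic UMIs without Cenpa. With the 5 highest cells left out of each library, an alternative chosen after seeing the data, the mitotic sum without Cenpa was 126 CPM in NB and 108 CPM in 10 M, against 115 CPM in 2 M. The ratios were then 1.1 (0.915 to 1.32) in NB and 0.942 (0.793 to 1.12) in 10 M, both within counting error of 1, and 2.62 (2.28 to 3.03) in 18 M. The counts of members past 2-fold were not recomputed without these cells.

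Lymphocytes of NB and 10 M were not all above 2 M either. In NK cells the mitotic sum without Cenpa was at 0.865 in NB (0.653 to 1.13) and at 0.814 in 10 M (0.681 to 0.973), beside the 0.874 of B cells of 10 M. Without the 5 highest cells of each library, NK cells were at 0.753 (0.538 to 1.03) in NB and 0.581 (0.467 to 0.721) in 10 M, T cells at 1.88 (1.67 to 2.12) and 1.53 (1.35 to 1.74), and B cells at 1.27 (1.12 to 1.43) and 0.878 (0.776 to 0.993).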

How the data were processed

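The deposited files hold the UMI counts of the authors, not normalized, for each gene in each barcode already called as a cell. The submitters' processing notes list Cell Ranger 3.0.2, Seurat 2.0 and the mouse build mm10. Barcodes needed more than 200 but fewer than 5000 genes, no more than 25000 UMIs and a mitochondrial share below 8%. Scrublet (in scanpy 1.11.5) called 156 NB, 114 2 M, 155 10 M and 0 18 M cells. Doublets were kept, and the calls were left out only in an alternative.

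Counts were summed per gate and library and divided by the sum of the gate. A member was counted as higher or lower past 2-fold where both libraries together gave at least 10 UMIs, beside the same count over all genes. Medians of log2 ratios were taken after 0.5 UMIs were added to each count. Values are given in full for the 3 members of each class with the most UMIs in a gate and for Mki67, Top2a and Pcna, and other members by range, with the highest and lowest ratio named. Members singled out beyond that rule were chosen after their values were seen. The members and lists were chosen with earlier results of these data known. Gene positions are those of GENCODE vM21 on GRCm38, and promoter sequences are from RefSeq. No member overlaps another gene on its strand. The intervals were tested on simulated counts. The work was done in scipy 1.17.1, pandas 2.3.3 and numpy 2.4.6 under Python 3.11.15, and plots in matplotlib 3.10.9. Alternatives changed the limits on cells, the doublets, the gate, the CPM total, the weight of cells, the 18 M cells used, the thinning, the number of members, the minimum of UMIs and the fold. Leaving Cenpa out, leaving out the 5 highest cells together with Cenpa, and the shares without upper limits on cells were added after seeing the data.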

Additional observations from a re-analysis of the deposited data

Results flagged for a closer look

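Some of the signal lay in barcodes that the main comparisons between ages did not use. Barcodes above the upper limits on genes and UMIs that passed the mitochondrial limit comprised 57 of NB, 63 of 2 M, 77 of 10 M and 185 of 18 M. After thinning, at least 3 mitotic members were found in 5.263% of those of NB, 6.349% of 2 M, 6.494% of 10 M and 5.405% of 18 M. Of the cells within the limits, the shares were 0.272%, 0.164%, 0.142% and 1.79%. The shares above the limits rest on 3, 4, 5 and 10 barcodes, with intervals of 1.1 to 14.6, 1.76 to 15.5, 2.14 to 14.5 and 2.62 to 9.72. Among these barcodes 18 M was thus not the highest. Of the 18 M cells in no gate, 1.314% had at least 3 mitotic members, above the 0.213% of neutrophils. Whether these barcodes are doublets was not tested.

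Ratios to 2 M pointed in different directions between gates, in each case with an interval that excluded 1. The differences between gates were not tested. In 10 M, the S phase sum was at 1.074 in T cells, 0.8542 in B cells and 0.671 in alveolar macrophages. The mitotic sum without Cenpa was at 1.327 in T cells, 0.8144 in NK cells, 0.8741 in B cells and 0.6894 in alveolar macrophages of 10 M. In NB, the S phase sum was at 1.144 in T cells and 0.7866 in alveolar macrophages, and the other replication sum at 1.444 in T cells and 0.3152 in alveolar macrophages. The mitotic sum without Cenpa was at 1.556 in T cells, 1.471 in B cells and 0.7195 in alveolar macrophages of NB. Without the 5 highest cells of each library, the mitotic sum without Cenpa of alveolar macrophages was within counting error of 2 M, at 1.1 in NB and 0.942 in 10 M.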

How the results depend on the processing

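Over 11 class ratios, the alternatives gave 122 values. Of these, 91 stayed within the counting interval of the value reported, 31 moved beyond it and 0 reversed a ratio whose interval excluded 1. A ratio whose interval included 1 could not count as reversed, so changes of sign in such ratios, given below, were not counted. The ratios of NB and 10 M to 2 M in alveolar macrophages were not among the 11. That of NB for the mitotic sum without Cenpa went from 0.72 to 1.1 without the 5 highest cells of each library. The cause of the moves was not tested. The following values are log2 ratios. With Cenpa left out, the mitotic sum of 18 M over 2 M was 2.46 in T cells (1.1 reported), 2.27 in B cells (0.69) and 2.92 in NK cells (1.46). With Cenpa left out, the sum of 10 M over 2 M was 0.41 in T cells (-0.08) and -0.19 in B cells (-0.01), and that of NB over 2 M was 0.64 in T cells (-0.04) and 0.56 in B cells (-0.03). As a mean over cells, the 18 M mitotic ratio was 0.67 in T cells, 0.32 in B cells and 0.96 in NK cells, the S phase ratio 0.42 in T cells (0.73 reported) and 0.19 in B cells (0.34), and the NB mitotic ratio of B cells -0.16. With at least 4 markers per gate, the mitotic ratio was 1.27 in T cells and 1.61 in NK cells and the S phase ratio of T cells 0.89. With a total without haemoglobin, mitochondrial, ribosomal protein and surfactant genes, T cells had 0.98 for the mitotic and 0.61 for the S phase members. With 18 M cells with Xist only, the mitotic ratio was 1.37 in T cells, 1.83 in NK cells and 0.39 in fibroblasts (1.17 reported) and the S phase ratio of T cells 0.89, and with 18 M cells with Y-linked UMIs only the mitotic ratio was 0.77 in B cells and 1.2 in NK cells. Without upper limits on genes and UMIs it was 0.77 in B cells, 0.68 in alveolar macrophages (0.92 reported) and 2.11 in fibroblasts, and 0.16 in T cells of 10 M. With the 5 highest cells left out it was 0.54 in B cells, 0.74 in NK cells and 1.38 in alveolar macrophages.

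Shares of cells with at least 3 mitotic members depended on the depth and the number of members. In T cells of 18 M (3.73% reported) the share was 1.21% at 500 UMIs, 5.8% at 2000 UMIs, 6.88% with at least 2 members and 1.05% with at least 5. In T cells of 2 M (0.418%) it was 0.105% at 500 UMIs, 2.3% with at least 2 members and 0.105% with at least 5. In B cells of 18 M (1.13%) it was 0.734% at 500 UMIs, 2.35% at 2000 UMIs, 2.73% with at least 2 members and 0.546% with at least 5. In B cells of 2 M (0.0828%, 2 cells) it was 0.704% with at least 2 members and 0 at 500 UMIs, with at least 5 members, without Cenpa, or without upper limits, which draws the thinned UMIs anew. At 4-fold, 23 members were higher in T cells and 17 in B cells, among those with at least 10 UMIs. The share of all genes past 4-fold is not given here, so these counts have no background beside them. Leaving out the Scrublet calls could not be applied to 18 M, where none were made.

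No paired analysis was possible because each age has 1 library. With 1 library per age, mice, library preparation and age cannot be told apart, and leaving out a replicate was not possible. Intervals take no account of the clumping of UMIs in single cells, where 5 cells held 57.4% of the mitotic UMIs without Cenpa in NK cells and 67.72% in erythroid cells of 18 M, 97.92% in endothelial cells and 85.19% in plasma cells of NB. Fibroblasts of 2 M had 101 cells, and a single UMI there weighs 1.11 CPM, which limits the mitotic members of that gate.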
